A study of Mus musculus with 6 samples.

Results

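Gpcpd1 encodes glycerophosphocholine phosphodiesterase 1, an enzyme that splits glycerophosphocholine into choline and glycerol 3-phosphate. It was examined together with 9 other genes of choline and ethanolamine phospholipid metabolism, namely Pemt, Chka, Chkb, Pcyt1a, Pcyt2, Etnk1, Etnk2, Chdh and Chpt1. These 10 genes, of 21512 in the table, were taken by name after the gene identifiers had been matched to symbols. They were assembled around Gpcpd1 because its mean level was nearly 4-fold higher after anti-PD-1, so every value below that compares the treatments is a description of these livers. Bulk RNA was sequenced from whole liver of C57BL/6J mice (mouse numbers 16, 17 and 18 for the isotype control and 20, 21 and 22 for anti-PD-1). All 6 mice received a high-fat diet and carbon tetrachloride for 12 weeks, which models steatohepatitis with fibrosis, and an antibody every 3 days. That antibody was an isotype control in 3 mice and anti-PD-1, directed at an inhibitory receptor of T cells, in the other 3. No group without the diet and toxin was analysed here, and the labels give neither sex nor age. For 2 of the anti-PD-1 mice, replicates 2 and 3, the treatment label has a different digit after PD. All 3 titles say PD-1, and the titles were followed.

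Phosphatidylcholine is the main phospholipid of liver membranes, of bile and of the surface of secreted lipoproteins. Hepatocytes make it from choline in the CDP-choline route, in which a kinase, a cytidylyl transferase and a phosphotransferase act in turn, and also by methylating phosphatidylethanolamine with PEMT, an enzyme that is abundant in liver. Breakdown of phosphatidylcholine yields glycerophosphocholine, from which GPCPD1 returns choline, and choline that is not reused for phospholipid can be oxidized to betaine, a methyl donor. Mice on a choline-deficient diet develop fatty liver.

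The libraries held 15528364 to 20779319 recovered reads. Values are the deposited normalized values, which are reads divided by a scaled library size, and 3 reads correspond to 0.144 to 0.2 on this scale. The 10 genes had between 397 and 17164 reads per library, so counting error was small beside the differences between mice described below. The hepatocyte markers were abundant in all libraries, with a summed level of 60761 to 82087 in controls against 58658 to 68340 after anti-PD-1. Anti-PD-1 replicate 1 had the highest summed level of the 5 T cell markers (30.5, against 5.53 and 6.05 in the other anti-PD-1 livers and 1.71 to 2.54 in controls). It was also highest for the 3 measured neutrophil markers (23.7, against 2.40 to 5.28 in the other 5 livers). All 3 adipocyte markers were at 0 or nearly so, except in isotype control replicate 2, where they summed to 13.0. In bulk tissue, fewer cells of a type and less RNA per cell cannot be told apart.

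Gpcpd1 had a mean level of 180 ± 120 in isotype controls against 680 ± 336 with anti-PD-1 (SD, n = 3 each), a ratio of means of 3.79. Its values in replicate order were 47.7, 208 and 283 for the isotype controls, and those of the anti-PD-1 livers were 293, 860 and 888. All anti-PD-1 livers were above all control livers, but only narrowly, since anti-PD-1 replicate 1 lay 1.03 times above isotype control replicate 3. The replicate numbered 1 was by far the lowest liver of its own group on both sides. The log2 fold change was 2.10 ± 0.69 (SE), and 6 of 13990 tested genes had a larger positive one. Leaving out isotype control replicate 1 brought it to 1.32, and leaving out anti-PD-1 replicate 1 to 2.63. With both of these removed, an analysis added once the values were known, it was 1.85. Gpcpd1 was the only one of the 10 genes with a log2 fold change beyond 1 in either direction, a size that 2.13% of all tested genes had.

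**Figure D1:**
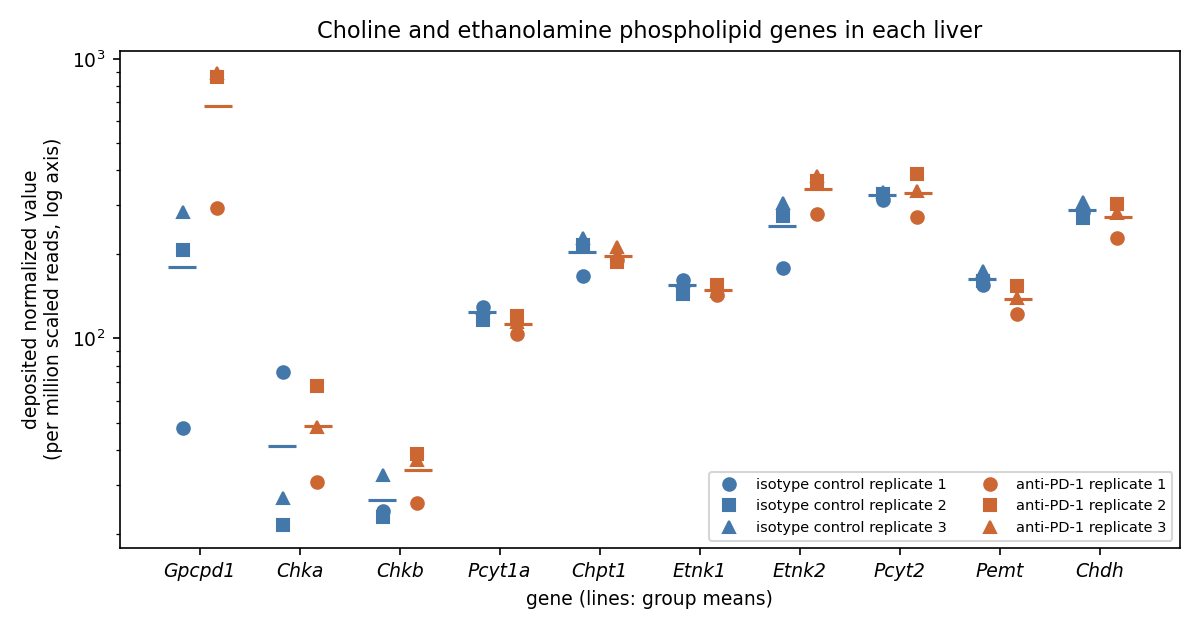
Deposited normalized value (log axis) of each of the 10 genes in the 6 livers, with isotype controls in blue, anti-PD-1 in orange, the marker shape giving the replicate number and horizontal lines the group means. Gpcpd1 spans 47.7 to 888, while Etnk1, Pcyt1a, Pcyt2, Pemt, Chdh and Chpt1 each span less than 1.5-fold.

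Gpcpd1 also varied more among mice of the same treatment than nearly any other gene. The SD of its log2 values was 1.37 among the controls, against a median of 0.18 over all tested genes, and 43 of the 13990 tested genes exceeded it. Among the anti-PD-1 livers the SD was 0.91, which 339 genes exceeded. Controls alone differed 5.94-fold between lowest and highest and anti-PD-1 livers 3.03-fold, and over all 6 livers the range was 18.6-fold. None of the 10 genes passed an adjusted p of 0.05 in limma, edgeR or DESeq2 over all genes tested. The share of all genes called was 0.00715% by limma, 0.00715% by edgeR with the authors' scaling and 1.83% by DESeq2. For Gpcpd1 the limma adjusted p was 0.343. With the replicate number as a block it was 0.0385, and 0.286% of all genes were then called. The ratio within equally numbered mice was 6.14, 4.14 and 3.13. As Gpcpd1 was selected on this contrast, these p-values describe it and lend it no support.

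Etnk2, an ethanolamine kinase gene of liver, followed Gpcpd1 from mouse to mouse more closely than any other of the 9 genes. Its values were 179, 274 and 305 in isotype controls against 279, 367 and 383 with anti-PD-1, with a log2 fold change of 0.46 ± 0.22 (SE). Isotype control replicate 1 was again the lowest liver and anti-PD-1 replicates 2 and 3 were the highest, but anti-PD-1 replicate 1 lay among the controls, so the groups overlapped. At each of the 3 replicate numbers the anti-PD-1 liver was higher, by ratios of 1.56, 1.34 and 1.25, but the labels do not give equal numbers as pairs. Without isotype control replicate 1 the log2 fold change was 0.23. Over the 6 livers the Pearson correlation of log2 values with Gpcpd1 was 0.989, and 0.998 after each group's mean was taken out. That placed Etnk2 at rank 14 of 10147 named genes with a mean of at least 5, of which 176 (1.73%) had a correlation of 0.95 or more. The points of these correlations are the same 6 libraries, so genes that separate the same mice correlate whatever their function.

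The 5 genes whose profile was most like that of Gpcpd1 were Dusp4 (0.999), Gaa (0.997), Zfp612 (0.995), Apbb3 (0.994) and Stag1 (0.994). A correlation does not give the size of a difference. From lowest to highest liver, Gaa differed only 1.32-fold and Stag1 1.24-fold, against 18.6-fold for Gpcpd1. Dusp4 differed 9.06-fold, Zfp612 4.67-fold and Apbb3 5.20-fold. Dusp4 encodes a MAP kinase phosphatase and Gaa the lysosomal alpha-glucosidase. The wider list of genes for comparison covers phospholipid synthesis, breakdown and transport, choline oxidation, glycerolipid precursors and sphingomyelin. Of its 59 genes with a mean of at least 5, 3 had a correlation of 0.95 or more, namely Lpin1 (0.982), Lpin2 (0.965) and Gde1 (0.965). Lpin1 and Lpin2 encode phosphatidate phosphatases, which make the diacylglycerol that both CDP routes use, and Gde1 encodes another glycerophosphodiester phosphodiesterase. Lpin1 was at 71.5, 315 and 529 in controls against 450, 872 and 989 with anti-PD-1. Lpin2 was at 294, 811 and 865 in controls against 802, 1366 and 1121 with anti-PD-1. In both genes anti-PD-1 replicate 1 lay within the control range and isotype control replicate 1 far below every other liver. Lpin1, Lpin2 and Gde1 were higher in the anti-PD-1 liver at all 3 replicate numbers, which the labels do not give as pairs, and the groups of each overlapped.

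The upstream sequences of Etnk2 and of these 3 genes are shown because their levels moved with Gpcpd1 from liver to liver. They come from RefSeq (build GRCm38.p6) and cover the 250 bases before the annotated start, read 5′ to 3′ on the gene's strand, and for Lpin2 the first of 3 listed starts. The reference table had an entry for 8 of the 10 genes, and Gpcpd1 and Pcyt2 had none. Capitals mark a match to 1 of 4 motifs searched on both strands, which do not overlap one another here.
Etnk2 (chr1:133363322-133363571, plus strand): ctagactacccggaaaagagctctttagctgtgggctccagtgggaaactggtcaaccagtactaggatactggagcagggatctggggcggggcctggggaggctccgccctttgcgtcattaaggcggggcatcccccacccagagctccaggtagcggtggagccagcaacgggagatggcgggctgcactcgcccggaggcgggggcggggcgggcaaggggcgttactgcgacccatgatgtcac
Lpin1 (chr12:16610967-16611216, minus strand): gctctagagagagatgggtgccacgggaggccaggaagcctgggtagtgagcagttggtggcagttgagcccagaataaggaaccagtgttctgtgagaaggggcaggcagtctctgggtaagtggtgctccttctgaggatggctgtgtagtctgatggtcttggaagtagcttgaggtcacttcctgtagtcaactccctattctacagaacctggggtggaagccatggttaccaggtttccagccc
Lpin2 (chr17:71183282-71183531, plus strand): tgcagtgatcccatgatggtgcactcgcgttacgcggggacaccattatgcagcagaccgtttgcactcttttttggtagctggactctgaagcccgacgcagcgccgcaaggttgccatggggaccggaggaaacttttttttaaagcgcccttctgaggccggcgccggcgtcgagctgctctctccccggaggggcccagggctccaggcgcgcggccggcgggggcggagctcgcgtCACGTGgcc
Gde1 (chr7:118705739-118705988, minus strand): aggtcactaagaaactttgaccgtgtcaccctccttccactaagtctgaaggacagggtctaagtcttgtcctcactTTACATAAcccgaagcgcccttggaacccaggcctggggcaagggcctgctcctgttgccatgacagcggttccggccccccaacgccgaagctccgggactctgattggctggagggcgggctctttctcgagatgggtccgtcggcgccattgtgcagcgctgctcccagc
The motifs were the E-box CACGTG, bound by clock factors among others, the D-box TTATGTAA, the cAMP response element TGACGTCA and the FOXO element GTAAACA. The Lpin2 window held an E-box 9 bases before the start, and 6.02% of all 32851 upstream windows of this length held one. Of the other Lpin2 starts, the second had no match and the third a FOXO element 138 bases upstream. Gde1 held a D-box 173 bases before its start, read on the opposite strand (TTACATAA as printed), a motif held by 0.819% of windows. Etnk2 and Lpin1 held none of the 4 motifs, and neither did any window of the other 7 genes with an entry. The cAMP response element was in 1.55% and the FOXO element in 3.17% of all windows. As 4 motifs were searched, and some genes had several windows, a match to any of them is more frequent than the share of a single motif. The share of windows with any of the 4 was not determined, and nothing is read from these matches.

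Several genes of fasting and feeding and of the circadian clock separated the same mice as Gpcpd1. Of 10 fasting and feeding genes with a mean of at least 5, 4 correlated with it at 0.95 or more and 1 at -0.95 or less, and of 12 clock genes 3 did so at 0.95 or more. Isotype control replicate 1 was the highest or lowest liver for 11 of the 12 clock genes and 6 of the 10 fasting and feeding genes. The share of all tested genes with this liver at an extreme was not determined, so nothing is read from these 2 counts. These lists were drawn up after the values had been seen and are given as description only. Ppargc1a, a coactivator induced by fasting, was at 18.2, 61.9 and 68.1 in controls against 99.6, 171 and 165 with anti-PD-1 (correlation with Gpcpd1 0.987). Pck1, the gluconeogenic enzyme gene, was at 1593, 2624 and 3383 in controls against 2907, 4780 and 5006 with anti-PD-1 (0.990). Ppp1r3c, which promotes glycogen synthesis, ran the other way, at 73.1, 11.7 and 8.999 in controls against 5.76, 2.46 and 1.66 with anti-PD-1 (-0.991). Isotype control replicate 1 was thus at one extreme for all 3 of these genes, and anti-PD-1 replicates 2 and 3 at the other.

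Among clock genes, Arntl, which encodes BMAL1, was at 22.9 in isotype control replicate 1 and at 3.87 to 8.93 in the other 5 livers. Dbp, an output gene of the clock, was at 13.1 in that liver and at 46.4 to 82.8 in the others. Per1 was at 16.6, 69.4 and 57.2 in controls against 80.0, 122 and 103 with anti-PD-1, and its groups did not overlap (in 7.13% of tested genes all anti-PD-1 values lay above all control values). Neither the time of day nor the feeding state at collection is given in the sources used here, and their part in the level of Gpcpd1 was not tested.

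**Figure D2:**
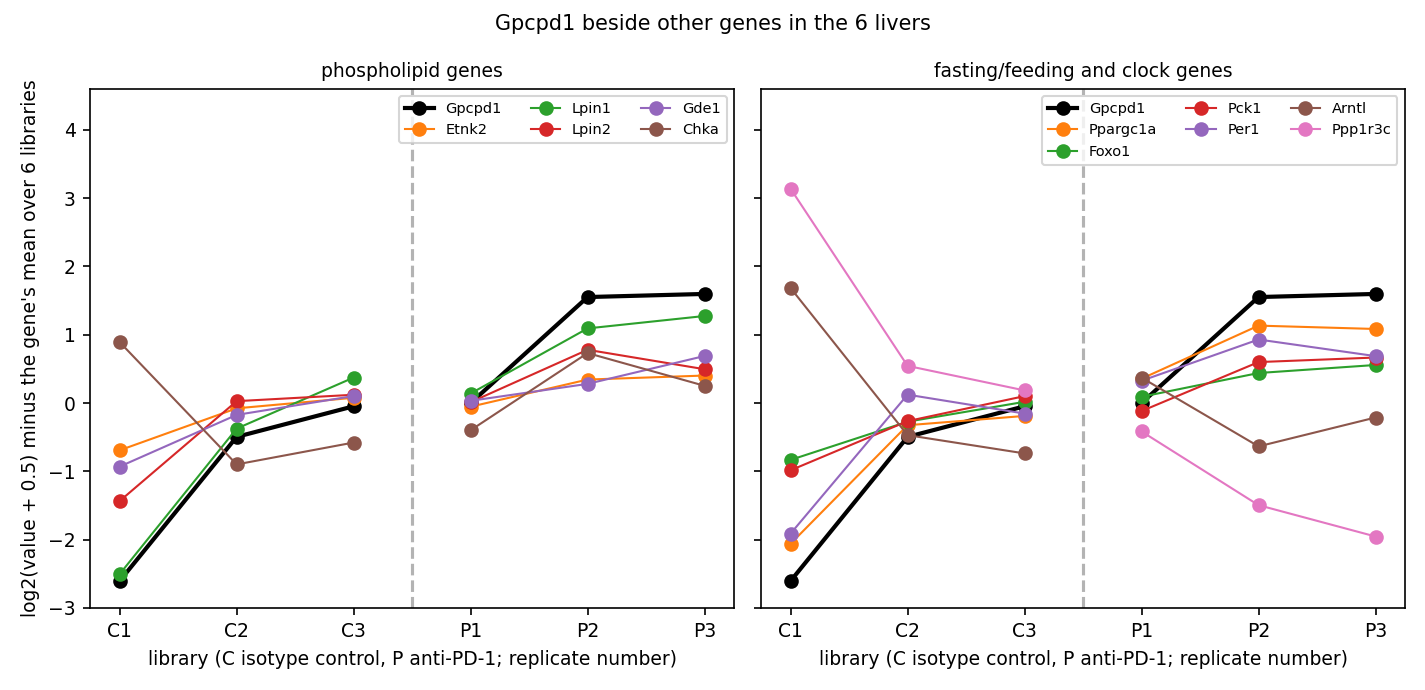
log2(value + 0.5) of single genes minus the gene's mean over the 6 livers, for phospholipid genes (left) and for fasting, feeding and clock genes (right), with Gpcpd1 in black in both; lines join a gene's points only for tracing, as livers of a group have no order. Etnk2, Lpin1, Lpin2, Gde1, Ppargc1a, Foxo1, Pck1 and Per1 are lowest in isotype control replicate 1 as Gpcpd1 is, whereas Chka, Arntl and Ppp1r3c are highest there.

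The other 3 genes that act on ethanolamine phospholipids had log2 fold changes between -0.24 and 0.01. Etnk1, the second ethanolamine kinase gene, was at 163, 144 and 161 in controls against 143, 155 and 148 with anti-PD-1 (log2 fold change -0.06 ± 0.10, SE). Its values thus lay within 1.14-fold of one another in all 6 livers. Pcyt2, the cytidylyl transferase of the CDP-ethanolamine route, was at 314, 329 and 335 in controls against 272, 388 and 336 with anti-PD-1 (0.01 ± 0.14). The anti-PD-1 livers lay on both sides of the controls, and the sign of the Pcyt2 difference changed in 5 of 18 alternative settings. Pemt, which methylates phosphatidylethanolamine to phosphatidylcholine, was at 155, 160 and 175 in controls against 122.5, 154 and 139 with anti-PD-1. Every anti-PD-1 value of Pemt was below every control value, by a log2 fold change of -0.24 ± 0.11, and the highest anti-PD-1 liver was close to the lowest control.

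Chka, the choline kinase alpha gene at the head of the CDP-choline route, had a wide spread within each group. It was at 75.6, 21.5 and 26.9 in controls against 30.6, 67.6 and 48.3 with anti-PD-1, so the highest liver of all was a control. Its log2 fold change was 0.39 ± 0.47 (SE). Leaving out isotype control replicate 1 gave 0.93, and leaving out isotype control replicate 2 gave 0.04. With replicate 1 of both groups removed it was 1.23, and Chka, like Gpcpd1, was then under the limma threshold (adjusted p = 0.0482 for Chka, with 0.951% of all genes called). That analysis was added once the values were known and leaves 2 livers a group. Unlike Etnk2, Chka did not follow Gpcpd1 over all 6 livers (correlation -0.06). Isotype control replicate 1 set them apart, as it was the highest liver for Chka (75.6) and the lowest for Gpcpd1 (47.7). Among the remaining livers both genes rose from isotype control replicate 2 through control replicate 3 to anti-PD-1 replicate 1. Both were highest there in anti-PD-1 replicates 2 and 3.

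Chkb, the choline kinase beta gene, was at 24.1, 22.9 and 32.5 in controls against 25.8, 38.6 and 36.8 with anti-PD-1 (log2 fold change 0.34 ± 0.19, SE). Anti-PD-1 replicates 2 and 3 were above all controls and replicate 1 was among them. Pcyt1a, which encodes the rate-controlling cytidylyl transferase of the route, was at 129, 116 and 129 in controls against 104, 120 and 115 with anti-PD-1 (-0.15 ± 0.10). Chpt1, the cholinephosphotransferase gene, was at 167, 215 and 229 in controls against 191, 187 and 213 with anti-PD-1 (-0.04 ± 0.14). Both overlapped between the groups. Chdh, the choline dehydrogenase that starts choline oxidation in mitochondria, was at 284, 269 and 308 in controls against 228, 304 and 282 with anti-PD-1 (-0.09 ± 0.13), again with overlap. Chkb overlaps the gene model Gm44502 on its own strand (at 0.865 to 1.73 in these livers), and Chkb, Chka, Chpt1, Chdh, Pcyt1a and Etnk1 overlap genes of the opposite strand, which were at 6.72 or less where they were in the table. Whether reads were counted by strand is not given in the sources used here.

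Across the 10 genes, 5 had a positive and 5 a negative log2 fold change, with a median of -0.01, against a median of 0.003 and 50.5% positive over all genes tested. In 1 gene (Gpcpd1) all anti-PD-1 values lay above the controls and in 1 (Pemt) all lay below, and the same held for 7.13% and 9.98% of all genes tested. The members were selected with this contrast in view, and nothing is read from these counts. An exact permutation of 3 against 3 mice cannot give a two-sided p below 0.1.

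**Figure D3:**
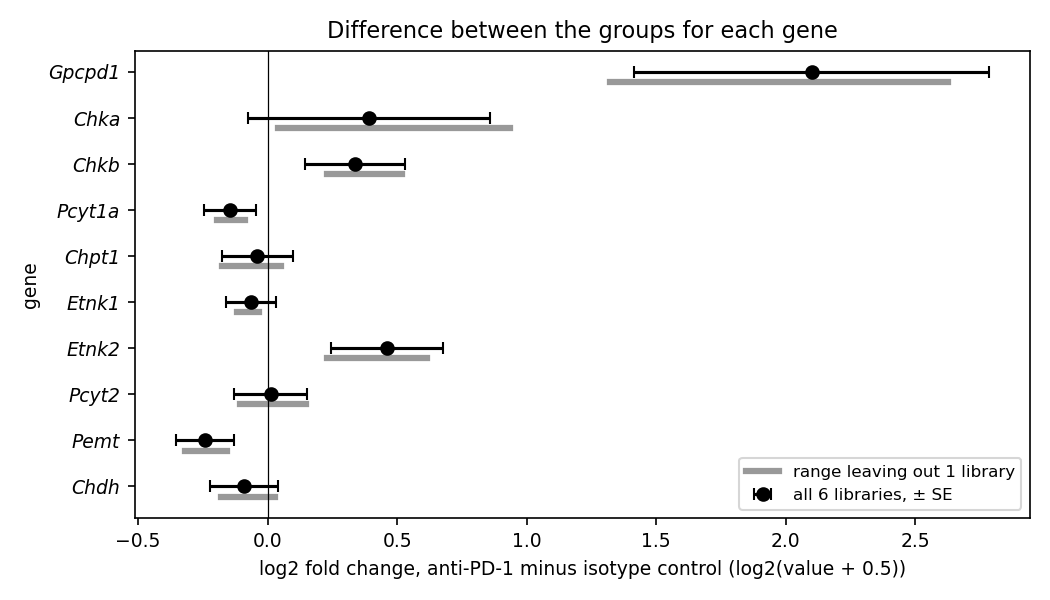
log2 fold change (anti-PD-1 minus isotype control, on log2(value + 0.5)) of the 10 genes, with points and bars for the estimate ± SE over all 6 livers and grey bars for the range when each library is left out in turn. Gpcpd1 lies at 2.10 with a range of 1.32 to 2.63, Chka ranges from 0.04 to 0.93, and the other 8 genes lie between -0.24 and 0.46.

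Levels of different genes were compared per kilobase of annotated exon, on the same normalized scale. In controls Pemt (77.6 ± 4.93) and Pcyt2 (75.0 ± 2.52) were highest, and they did not differ beyond their spread (SD, n = 3). Etnk2 (55.4 ± 14.4) and Chdh (46.2 ± 3.17) came next and overlapped each other. Gpcpd1 (24.6 ± 16.5) shared the following place with Chpt1 (24.5 ± 3.89). The range of Gpcpd1 also took in all values of Pcyt1a (16.8 ± 1.00), Etnk1 (11.01 ± 0.72) and Chkb (8.66 ± 1.70), so its place among these genes was not resolved. Pcyt1a overlapped neither Chpt1 nor Etnk1, Etnk1 and Chkb overlapped, and Chka (3.44 ± 2.48) was lowest. After anti-PD-1 Gpcpd1 had the highest mean of the 10 (93.3 ± 46.1), although its value in replicate 1 (40.2) was below those of Pcyt2, Etnk2 and Pemt in the same liver. Pcyt2 (76.4 ± 13.3), Etnk2 (75.1 ± 12.3) and Pemt (65.8 ± 7.47) followed and overlapped one another, and Chka was lowest again. The exon length is the union over all annotated isoforms, so genes with long rare exons are understated.

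**Figure D4:**
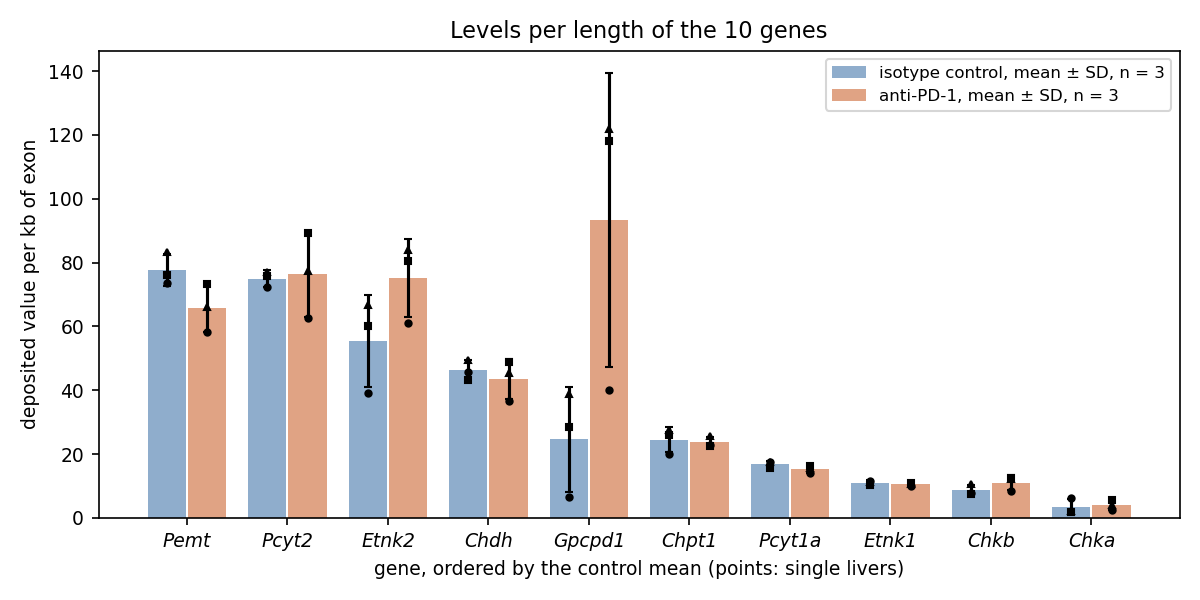
Level per kilobase of exon of the 10 genes, with bars for group means ± SD (n = 3), points for single livers and genes ordered by the control mean. The mean of Gpcpd1 is 24.6 in controls and 93.3 after anti-PD-1, where its 3 livers lie at 40.2, 118 and 122.

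The surrounding pathway was described with 75 further genes in 10 groups, of which 66 reached the level needed for testing. None of the 66 passed an adjusted p of 0.05 by limma in either direction, and 8 had an unadjusted limma p under 0.05, against 11.3% of all genes tested. edgeR called none either, and DESeq2 called 1 higher, Smpd3, and 1 lower, Phospho1, where it called 1.83% of all genes tested. Of the 66, 36 had a positive and 30 a negative log2 fold change, with a median of 0.03. In 5 of them all anti-PD-1 values lay above all controls (Ahcy, Plaat3, Mboat7, Abca1 and Smpd3), and in 5 below (Slc44a3, Phospho1, Gpam, Gk and Pctp), against 7.13% and 9.98% of all genes tested. The groups do not overlap in 17.1% of all genes tested, in either direction.

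Phospho1, which encodes a phosphatase of phosphocholine and phosphoethanolamine, had the lowest log2 fold change of these genes, -1.31 ± 0.24 (SE). It was at 4.91, 5.19 and 5.03 in controls against 1.68, 2.53 and 1.19 with anti-PD-1, with no overlap and little spread among the controls. Its adjusted p was 0.215 by limma and 0.00384 by DESeq2. With a pseudocount of 2 the log2 fold change was -0.91. Smpd3, a neutral sphingomyelinase gene that releases phosphocholine from sphingomyelin, was at 9.28, 7.68 and 11.2 in controls against 14.1, 15.98 and 16.5 with anti-PD-1. The log2 fold change was 0.71 ± 0.16, with an adjusted p of 0.244 by limma and 0.0234 by DESeq2, and the groups did not overlap. The other sphingomyelin genes picked by the naming rule, Sgms2 and Smpd1, had log2 fold changes of -0.09 and -0.11.

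In the breakdown of glycerophosphodiesters and lysophospholipids, 9 of 12 genes were tested. Gde1 was at 20.99, 35.8 and 43.5 in controls against 41.4, 49.3 and 65.6 with anti-PD-1 (log2 fold change 0.67 ± 0.27, SE, limma adjusted p = 0.421). Gdpd5, another glycerophosphocholine phosphodiesterase gene, was near the detection filter at 1.05 ± 0.35 and 1.86 ± 0.54 (SD, n = 3). Lypla1, a lysophospholipase gene, was at 204 ± 14.3 and 196 ± 17.1. Gdpd2, Gdpd3 and Gdpd4 were not tested.

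Among the 11 genes that supply glycerol phosphate and diacylglycerol, Gpam, the mitochondrial glycerol-3-phosphate acyltransferase, had values of 767, 751 and 1035 in controls against 597, 626 and 465 with anti-PD-1. This gave a log2 fold change of -0.59 ± 0.18 (SE, limma adjusted p = 0.305), with no overlap between the groups. Gk, the glycerol kinase gene, was at 159 ± 8.90 and 134 ± 3.36 (SD, n = 3), also without overlap. Lpin1 and Lpin2 had the 2 highest log2 fold changes of this group, 1.67 ± 0.67 and 0.86 ± 0.41 (SE). These were 0.84 and 0.35 without isotype control replicate 1, the liver in which both were lowest. Lpin1 was named after its values were seen.

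For choline entry, choline oxidation and methyl donors, the log2 fold changes of the tested genes lay between -0.22 and 0.44. Slc44a1, which encodes choline transporter-like protein 1, had a log2 fold change of -0.20, and its relative Slc44a3 of -0.22. Ahcy, which clears the S-adenosylhomocysteine that methylation by PEMT leaves, was at 1567, 1694 and 1676 in controls against 1738, 2487 and 2550 with anti-PD-1. All of these anti-PD-1 values were above the controls, replicate 1 only slightly (limma adjusted p = 0.450). Mat1a and Bhmt2, of methionine metabolism, had log2 fold changes of 0.17 ± 0.21 and -0.20 ± 0.12 (SE).

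In the final steps of both CDP routes, Cept1, the dual choline and ethanolamine phosphotransferase gene, had a log2 fold change of -0.21 ± 0.13 (SE). Etnppl, which degrades phosphoethanolamine, was at 214 ± 22.7 in controls against 251 ± 51.4 with anti-PD-1 (SD, n = 3). In the phosphatidylserine route the log2 fold changes were -0.05 for Ptdss1, -0.17 for Ptdss2 and 0.04 for Pisd. Pctp, the phosphatidylcholine transfer protein gene, was at 112 ± 9.11 and 97.9 ± 4.31. Abca1, which exports phospholipid and cholesterol to apolipoprotein A-I, was at 546, 458 and 491 in controls against 557, 756 and 783 with anti-PD-1 (limma adjusted p = 0.348). For both Pctp and Abca1 the groups did not overlap, and for Abca1 the gap rested on anti-PD-1 replicate 1 being just above isotype control replicate 1.

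Plaat3 and Pld4, both listed by family with the phospholipases, were highest in the liver with the most T cell and neutrophil marker RNA. Plaat3, an adipocyte-enriched phospholipase, was at 4.80, 6.44 and 4.78 in controls against 16.3, 7.06 and 7.04 with anti-PD-1. Pld4, a phospholipase D family member found in myeloid cells, was at 11.1, 8.71 and 5.98 in controls against 33.0, 12.3 and 10.9 with anti-PD-1. Anti-PD-1 replicate 1 was the highest liver for both, as it was for the summed macrophage markers (327, against 149 to 279 in the other 5 livers). Csf1r and Adgre1 made up most of that sum. The Kupffer cell markers Clec4f, Timd4 and Marco of the same list were instead lower in every anti-PD-1 liver than in every control. The same held for 9.98% of all genes tested. The means of Clec4f, Timd4 and Marco were 66.3, 3.06 and 8.53 in controls against 42.0, 0.508 and 1.44 with anti-PD-1. DESeq2, which called 1.83% of all genes tested, called Timd4 and Marco lower (adjusted p = 0.00316 and 0.00743). By limma none of the 3 was called (adjusted p = 0.348 for Clec4f, 0.215 for Timd4 and 0.269 for Marco). The part of immune cells in the Plaat3 and Pld4 differences was not tested. For Gpcpd1 and Etnk2, anti-PD-1 replicate 1 was the lowest of its group. Lpcat1 and Lpcat3, lysophosphatidylcholine acyltransferase genes, and Mboat7 had log2 fold changes of 0.28, 0.02 and 0.10, and Pld3 of 0.06.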

How the data were processed

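The deposited table gives a normalized signal for 21512 genes in every library. Per the submitters' processing notes, Trimmomatic 0.38, RSEM 1.3.0, Bowtie2 and edgeR were used with the GRCm39 build, and their order is not given in the sources used here. In each library, 100% of the deposited values were whole multiples of 1 common step within 0.001 read, so reads were recovered for the count tests. The clock and the fasting and feeding lists were added after values had been seen. Symbols were matched for 21407 identifiers.

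The main test was limma 3.58.1 (R 4.3.3) with an intensity trend on log2(value + 0.5), two-sided, for the 13990 genes that reached 1 unit in 3 or more libraries, with Benjamini-Hochberg adjustment over all of them and a threshold of 0.05. All 10 members passed the filter in both groups. Fold changes on this scale understate those of low genes. edgeR 4.0.16 and DESeq2 1.42.0 on recovered reads, other pseudocounts (0.1 and 2), filters (none and 5 units) and scalings, a replicate block and leaving out single libraries were alternatives. The labels number the replicates 1 to 3 in each group without saying that a number marks a litter, cage or day. Between equally numbered libraries, departures from the group mean had correlations of 0.15, 0.13 and 0.25. Between unequally numbered libraries they were -0.22 to 0.06. These few values come from the same data and cannot establish pairs, and the main test left the mice unpaired. Results with the replicate block and ratios at equal numbers are description, as any pairing rests on the values alone.

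The members and gene lists were chosen with earlier results of these data known. Named from the wider list were, per group, the 2 genes of smallest unadjusted p and the most abundant gene; 1 of these genes is not reported here. The genes most like Gpcpd1 were the 5 with the highest Pearson correlation over 6 libraries among named genes with a mean of at least 5. The p-values set a difference between the groups against the spread between these mice only. Upstream sequences are of build GRCm38.p6, older than that of the data, and served for sequence only.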

Additional observations from a re-analysis of the deposited data

How the results depend on the processing

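With all 6 libraries limma called 1 gene higher and 0 lower over all genes and 0 genes of the wider phospholipid list. With the replicate block, 27 were higher and 13 lower, DESeq2 gave 147 and 109 and 2 genes of the wider list, and edgeR with recomputed factors gave 0 higher. At an unadjusted p under 0.05 limma had 705 higher and 873 lower, and edgeR with recomputed factors 794 and 832. Leaving out each library in turn gave 0 to 24 higher and 0 to 6 lower, with the 24 and 6 found without anti-PD-1 replicate 1, and removing replicate 1 of both groups, an alternative added once the values were known, 97 were higher, 36 lower and 1 of the wider list was called. The cause of these differences was not tested. Gpcpd1 was positive in all 18 settings, with a log2 fold change of 1.32 to 2.63, and the replicate block changed the call of no other member. Of 180 values of the 10 genes under alternatives, 1 moved by more than the spread between replicates (Chka, to 1.23). Signs changed for Pcyt2, Chdh and Chpt1 in 5, 2 and 2 of the 18 settings. The scaling moved the median log2 fold change of all genes by less than 0.1. Genes of low level also carry counting error: Gdpd5 had 13 to 51 and Phospho1 23 to 100 reads per library.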
